A study of Mus musculus with 6 samples.

Results

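The 10 genes described here encode the core of cytokine signalling in T cells: the Janus kinases Jak1, Jak2, Jak3 and Tyk2, the transcription factors Stat3, Stat5a and Stat5b, and the feedback inhibitors Socs1, Socs3 and Cish. Their probe sets were found by gene symbol in the platform annotation, and they are 10 of the 18193 genes that a probe set with 1 symbol names on this array. They have 21 such probe sets, and a gene is represented by whichever of its probe sets is brightest, judged by mean log2 signal across all arrays. Another 2 probe sets carry the symbols Jak3 and Insl3 together and name neither gene.

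The CD4 T cells came from C57BL/6 mice aged 10 to 11 weeks. In the Furin cKO (conditional knockout) mice, both copies of the Fur gene were flanked by loxP sites and Cre was driven by the Cd4 promoter, which is active from thymocyte development onward. The control mice carried the same loxP-flanked alleles without Cre, so all groups share them. Each genotype gave 3 populations: activated cells, which were naive CD62L+ CD44- cells stimulated for 2 days on plates coated with antibodies to CD3 and CD28 at 5 µg/ml each, and regulatory (CD25+ FoxP3+) and memory (CD62L- CD44+) cells, both sorted without culture. Each of the 6 combinations was 1 array, so no value has a replicate or an SD, and the sources used here do not give whether an array held cells of 1 animal or of a pool. The values are MAS5 signals on a linear scale, and the same probe set is compared between arrays but never with another probe set.

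A cytokine receptor has no kinase of its own. When a cytokine joins its receptor chains, the JAKs bound to their tails phosphorylate each other and the receptor, a STAT docks and is phosphorylated, and the STAT dimer enters the nucleus and binds DNA. In T cells, IL-2, IL-7 and other cytokines that share the common gamma chain signal through JAK1 and JAK3, mostly to STAT5A and STAT5B. IL-6 signals through JAK1, JAK2 and TYK2 to STAT3. STATs induce Cish, Socs1 and Socs3, whose proteins block the receptor or the kinase and so close a feedback loop.

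STAT dimers bind the palindrome TTCNNNGAA, a pair of half-sites with 3 bases between them. The RefSeq promoter table of the GRCm38.p6 build holds 12 promoters of the 10 genes, each 300 bases long with 250 before the transcription start and 50 from it onward. The motif is present in those of 2 genes, both feedback inhibitors. The promoter of Socs1, which STATs also induce, has no match. The 2 promoters below are shown because they hold the motif. Capitals mark the motif, and both are written 5′ to 3′ on the gene's own strand.

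Cish, chr9:107296409-107296708, plus strand: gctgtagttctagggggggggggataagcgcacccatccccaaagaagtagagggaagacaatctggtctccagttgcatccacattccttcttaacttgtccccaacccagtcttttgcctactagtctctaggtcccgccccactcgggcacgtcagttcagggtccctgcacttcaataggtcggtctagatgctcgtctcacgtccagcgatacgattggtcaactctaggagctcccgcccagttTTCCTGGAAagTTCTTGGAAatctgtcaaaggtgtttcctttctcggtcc

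Socs3, chr11:117969317-117969616, minus strand: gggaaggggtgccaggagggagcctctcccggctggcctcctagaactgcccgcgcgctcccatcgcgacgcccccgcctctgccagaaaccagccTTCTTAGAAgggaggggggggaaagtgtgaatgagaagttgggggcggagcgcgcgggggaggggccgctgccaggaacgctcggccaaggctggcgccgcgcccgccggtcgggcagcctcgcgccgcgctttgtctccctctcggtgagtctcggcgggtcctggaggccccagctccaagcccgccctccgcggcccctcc

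Cish has 2 matches, which begin at bases 1 and 12 counted from the transcription start. The single match of Socs3 begins at base -154. Of the 32851 promoters in the table, 8.3% hold the motif at least once and 0.457% hold it 2 or more times. The same half-sites with 4 bases between them, TTCNNNNGAA, are in 6.95% of all promoters and in 0 of the 12 promoters of these genes. Both motifs are palindromes, so a search of 1 strand covers both. A match describes the letters in this window and is not a measured binding site.

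The arrays differed by population in more than these genes. Signals under 47.6, the 40th percentile pooled over arrays and probe sets, were treated as background, and that value is called the floor. At or above it were 49.4% to 49.8% of probe sets on the activated arrays, 65.8% to 67.4% on the regulatory arrays and 62.6% to 65.2% on the memory arrays. RNA quality, as read by the ratio of the 3' to the 5' actin control probe set, also differed, at 1.22 to 1.24, 1.35 to 1.36 and 1.56 to 1.93 in that order of populations. The hybridisation control bioB read 656 to 757.5 on activated, 1809 to 2123 on regulatory and 2974 to 4145 on memory arrays. The labels name no batch, and population, culture and handling of the arrays cannot be told apart.

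The targeted gene did not follow the genotype labels in every population. Furin read 468.3 on the Furin cKO array and 515.8 on the control array of activated cells, and 410.0 against 547.2 in regulatory cells. The memory array labelled Furin cKO had a Furin signal of 2203 and the memory control array one of 647.4, the opposite of a loss. The sources used here do not give where the probe set lies relative to the loxP sites. The markers of the sorted cells also went against a label in 1 case. Foxp3, which defines regulatory cells, read 33.8 and 50.4 on the regulatory arrays of Furin cKO and control mice, near or below the floor, against 1116 and 1358 on the memory arrays. The other regulatory markers Il2ra, Ctla4 and Ikzf2 were higher on both regulatory arrays than on both memory arrays, with Ikzf2 at 15968 and 13901 against 8213 and 9419.

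All 10 genes read above the floor on all 6 arrays, so none entered a comparison through 1 population alone. The plot of signals by array shows one pattern for 8 of them, namely low on both activated arrays and high on the regulatory and memory arrays, the reverse for Jak2, and no such separation for Stat5a.

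**Figure D1:**
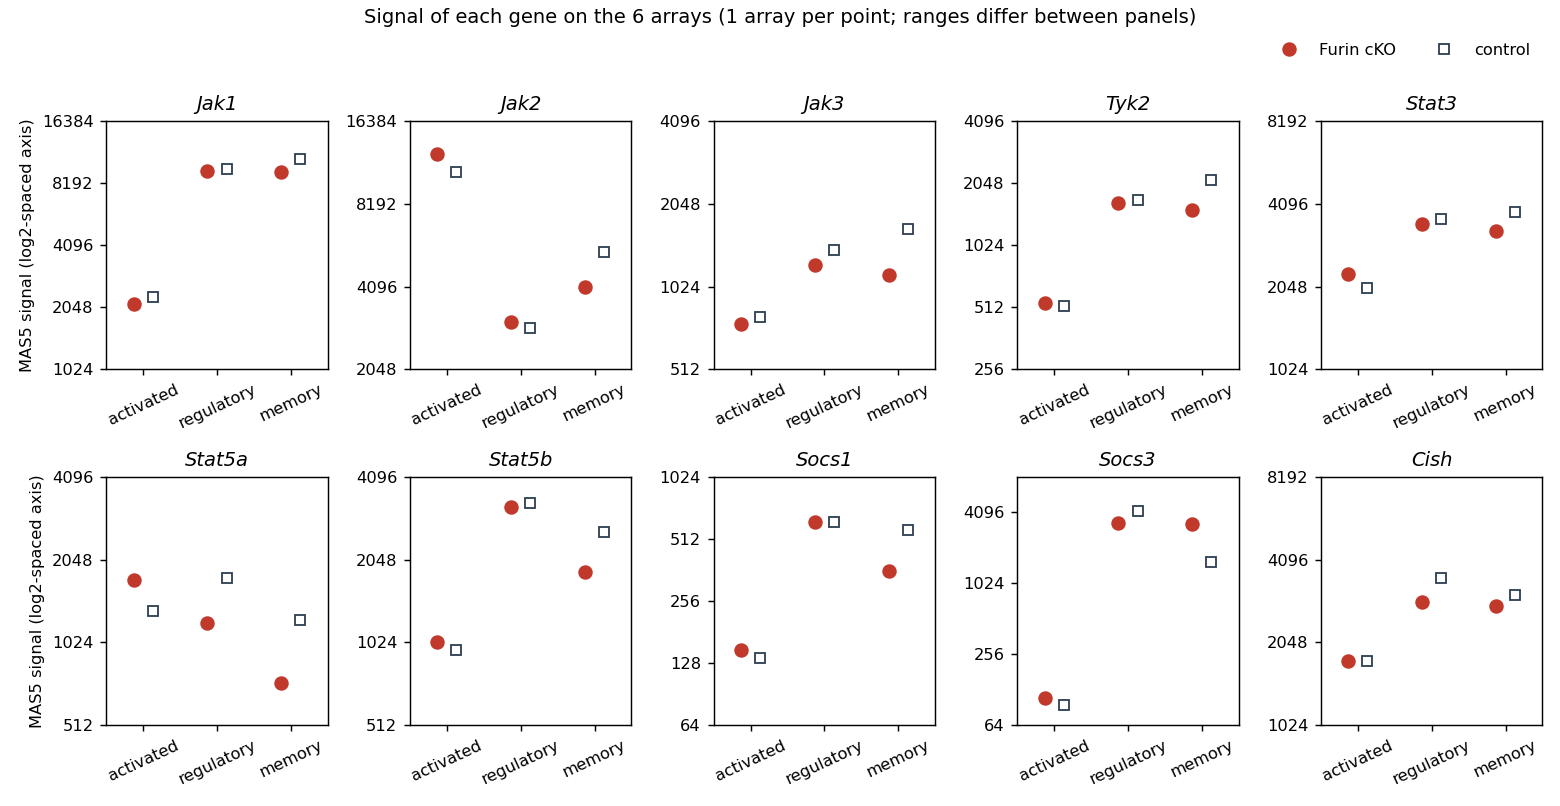
MAS5 signal of each gene (vertical axis, log2-spaced, with a different range in each panel) in the 3 populations, 1 array per point, with filled red circles for Furin cKO and open squares for control. Both activated arrays sit below the other 4 in the panels of Jak1, Jak3, Tyk2, Stat3, Stat5b, Socs1, Socs3 and Cish, above them for Jak2, and among them for Stat5a.

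Jak1, the kinase that most cytokine receptors of T cells share, was much dimmer in activated cells. Its signal was 2135 on the Furin cKO and 2301 on the control array of activated cells, 9398 and 9578 in regulatory cells, and 9303 and 10700 in memory cells. The activated arrays lay far below the other 4, and the regulatory and memory ranges overlapped. Jak1 was 4.50-fold lower in activated than in memory cells (log2 difference -2.17, SE 0.14, limma adjusted p = 0.00203) and 4.28-fold lower than in regulatory cells (adjusted p = 0.00219). Its other 2 probe sets were lower in activated cells as well, with log2 differences of -1.71 and -2.35 against memory cells.

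Jak2, which serves the receptors for interferon gamma, IL-12, IL-3 and GM-CSF, was the only kinase of the 4 with its brightest arrays among activated cells. It read 12500 on the Furin cKO and 10690 on the control array of activated cells, 3044 and 2901 in regulatory cells, and 4086 and 5497 in memory cells. The 3 populations did not overlap, with activated cells highest and regulatory cells lowest. Jak2 was 2.44-fold higher in activated than in memory cells (log2 difference 1.29, SE 0.21, limma adjusted p = 0.0116) and 3.89-fold higher than in regulatory cells (adjusted p = 0.00448). The second probe set was higher in activated cells too, by 1.74 against memory and by 2.02 against regulatory cells on the log2 scale.

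Jak3, which binds only the common gamma chain, differed less. Its signal was 748 on the Furin cKO and 795.8 on the control array of activated cells, 1228 and 1391 in regulatory cells, and 1129 and 1665 in memory cells. Both activated arrays were the lowest, and the memory arrays lay on either side of the regulatory ones. Jak3 was 1.78-fold lower in activated than in memory cells (limma adjusted p = 0.0241) and 1.69-fold lower than in regulatory cells (adjusted p = 0.0307). One of the 2 probe sets shared with Insl3 was above the floor and differed by -0.74 and -0.92 in the same 2 comparisons on the log2 scale.

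Tyk2, the partner kinase of JAK1 or JAK2 on receptors for type I interferons, IL-12 and IL-10, behaved more like Jak1. It read 537.2 on the Furin cKO and 520.3 on the control array of activated cells, 1647 and 1707 in regulatory cells, and 1516 and 2122 in memory cells. Activated cells stood clearly below the others, 3.39-fold lower than memory cells (limma adjusted p = 0.00424) and 3.17-fold lower than regulatory cells (adjusted p = 0.00509). A second, dim Tyk2 probe set was below the floor on both activated arrays.

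Among the STATs, Stat3 and Stat5b were lower in activated cells and Stat5a was not separated from either population. Stat3, the factor downstream of IL-6, IL-10 and IL-21, read 2269 on the Furin cKO and 2027 on the control array of activated cells, 3467 and 3626 in regulatory cells, and 3275 and 3832 in memory cells. The difference was small, 1.65-fold lower than in memory cells (limma adjusted p = 0.0267) and 1.65-fold lower than in regulatory cells (adjusted p = 0.0268). Its other 3 probe sets were also lower in activated cells on average, with log2 differences between -0.17 and -1.09 against memory cells. On the one at -0.17 these populations overlapped. It read 2656 and 2557 in activated and 2631 and 3285 in memory cells, Furin cKO before control.

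Stat5a and Stat5b encode 2 closely related proteins that carry the signal of IL-2 and IL-7, and they had different patterns. Stat5b read 1030 on the Furin cKO and 960.8 on the control array of activated cells, 3189 and 3301 in regulatory cells, and 1850 and 2580 in memory cells. The 3 populations did not overlap, and activated cells were 2.20-fold below memory cells (log2 difference -1.14, SE 0.20, limma adjusted p = 0.0132) and 3.26-fold below regulatory cells (adjusted p = 0.00516). Stat5a read 1721 and 1326 in activated, 1202 and 1762 in regulatory, and 728.9 and 1236 in memory cells, Furin cKO before control in each. Its populations overlapped: the genotypes within a population differed by as much as the populations did. The Stat5a difference of activated over memory cells was 0.67 on the log2 scale, with a 95% interval of -0.21 to 1.55 (adjusted p = 0.177), and that of activated over regulatory cells was 0.05, with an interval of -0.82 to 0.93 (adjusted p = 0.958). A dimmer probe set of each gene did not follow its brighter one in full: for Stat5b it differed by 0.37 and -0.03 in the same 2 comparisons on the log2 scale, and for Stat5a by 0.18 and -1.27.

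The feedback genes held the largest difference of the 10. Socs3, whose protein blocks signalling by the IL-6 family through gp130, read 109.4 on the Furin cKO and 95.4 on the control array of activated cells, 3306 and 4170 in regulatory cells, and 3284 and 1552 in memory cells. The activated arrays lay not far above the floor and well below the other 4, and the control memory array was the lowest of those. Socs3 was 22.1-fold lower in activated than in memory cells (log2 difference -4.47, SE 0.37, limma adjusted p = 0.00266) and 36.3-fold lower than in regulatory cells (log2 difference -5.18, adjusted p = 0.00236). Both other Socs3 probe sets showed it as well: one read 47.4 and 35.6 on the activated arrays, below the floor, against 988.7 to 2153 on the other 4, and the other read 92 and 36.8 against 1158 to 2779.

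Socs1, which inhibits JAK1, JAK2 and TYK2 directly and restrains interferon and common gamma chain signals, was also low in activated cells. It read 148.3 on the Furin cKO and 135.6 on the control array of activated cells, 617.3 and 617.7 in regulatory cells, and 356.1 and 566.6 in memory cells. The populations did not overlap, and activated cells were 3.17-fold lower than memory cells (limma adjusted p = 0.00877) and 4.35-fold lower than regulatory cells (adjusted p = 0.00521). Cish, a STAT5 target that dampens IL-2 signalling, differed least among the feedback genes. Its signal was 1750 on the Furin cKO and 1747 on the control array of activated cells, 2862 and 3524 in regulatory cells, and 2778 and 3044 in memory cells. It was 1.66-fold lower in activated than in memory cells (limma adjusted p = 0.0211) and 1.82-fold lower than in regulatory cells (adjusted p = 0.014). The promoters with the motif are those of the feedback genes with the largest and the smallest difference.

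In all, 8 of the 10 genes fell and 1 rose in activated cells relative to memory cells in the limma fit, at an adjusted p under 0.05. Over the 15808 genes tested, 27.0% were called lower and 17.4% higher in that comparison. Relative to regulatory cells the count was again 8 lower and 1 higher, where 26.5% of all genes were called lower and 18.1% higher. The median log2 difference of the 10 genes was -0.98 against memory cells, beside -0.21 for all genes tested, and -1.26 against regulatory cells, beside -0.23. The medians of all genes went to 0 with quantile or cyclic loess scaling, under which 9 genes were called in each comparison, and the 18 called differences kept their signs in every setting tried. Both comparisons use the same activated arrays and are not independent of each other. The fit has 2 residual degrees of freedom, and its spread comes from arrays that differ in genotype, not from replicates of 1 condition. In the main fit, 9 genes were called in each comparison, beside the shares above. With all 6 arrays and the floor at the 20th percentile, 6 were called against memory and 7 against regulatory cells, beside 6345 and 6596 of all genes. With no filter and no floor the counts were 6 and 6, beside 5576 and 5782 of all genes. Jak3 and Stat3 lost their calls in each of these 4 cases, and Cish in 3 of them. With probe sets averaged, Stat5b was not called against memory cells (log2 difference -0.38, adjusted p = 0.109). With any 1 array left out, fewer of the 10 genes and fewer of all genes were called in each comparison. Without both regulatory arrays, 1 of the 10 genes was called against memory cells, beside 1879 of all genes. T cell markers moved with this difference: the 7 of 10 listed that are on the array summed to 26010 and 25250 in activated, 86080 and 90840 in regulatory, and 111600 and 105000 in memory cells, Furin cKO before control. All 7 were called lower in activated than in memory cells (median log2 difference -2.20) and 5 of the 7 lower than in regulatory cells (median -1.91), and their part in the result was not tested. All signals are relative to the mean of their array, and in a sorted bulk sample fewer cells of a type and less RNA per cell cannot be told apart.

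**Figure D2:**
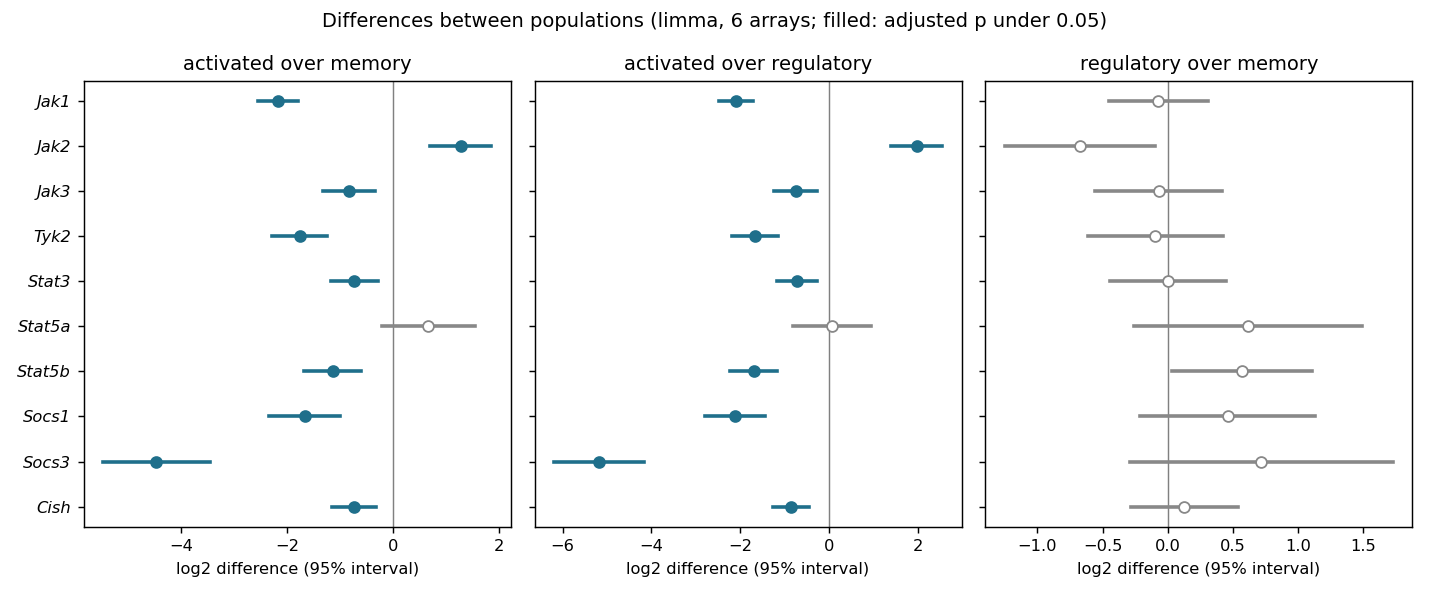
Log2 difference between populations for each gene (horizontal axis; dots are limma estimates over 6 arrays and lines their 95% intervals), with filled symbols for an adjusted p under 0.05. Socs3 stands farthest from 0 at -4.47 and -5.18 in the activated comparisons, Jak2 is alone to the right among called genes, and in regulatory over memory cells no gene was called.

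Regulatory and memory cells were not separated by any of the 10 genes after adjustment. Of all genes tested, 0% were called higher and 0% lower in regulatory over memory cells in the limma fit, where 3358 of 15808 had an unadjusted p under 0.05. Among these genes 2 did: Jak2 differed by -0.67 on the log2 scale (95% interval -1.25 to -0.10, adjusted p = 0.189) and Stat5b by 0.57 (interval 0.04 to 1.11, adjusted p = 0.214). For Stat3 the estimate was 0.00, with an interval of -0.44 to 0.44. Socs3 had the widest interval, from -0.29 to 1.73 around 0.72. 

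The second question is how these genes differed between the arrays labelled Furin cKO and control within each population. With 1 array per group this has no test, and the values describe pairs of arrays. By the brightest probe sets, 8 genes in activated cells were higher and 2 lower on the Furin cKO array, and the log2 folds ran from -0.11 for Jak1 to 0.38 for Stat5a. None was past 2-fold, while of the 10756 genes measured 0.390% were past 2-fold upward and 0.372% downward. The median log2 fold of the 10 genes was 0.11, beside a value near 0 for all genes, of which 51% were lower. In 8 of the 10, the fold was within 1 scaled median absolute deviation of all genes, 0.21 on the log2 scale.

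In regulatory cells 1 gene was higher and 9 were lower on the Furin cKO array. The exception was Jak2 with a log2 fold of 0.07, and the largest was Stat5a with -0.55, at 1202 against 1762 in control cells. Socs3 (log2 fold -0.34) and Cish (-0.30) came next, and Jak1, Tyk2, Stat3, Stat5b and Socs1 were all within 0.07 of 0. Again none was past 2-fold, beside 3.14% of 14587 genes past it upward and 2.12% downward. The median log2 fold of the 10 was -0.06, beside -0.02 for all genes, of which 51.9% were lower.

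In memory cells, where the Furin signal goes against the label, the folds were larger. By the brightest probe sets, 9 of the 10 genes were lower on the array labelled Furin cKO. Stat5a (log2 fold -0.76), Socs1 (-0.67), Jak3 (-0.56), Tyk2 (-0.48), Stat5b (-0.48) and Jak2 (-0.43) led, followed by Stat3 (-0.23), Jak1 (-0.20) and Cish (-0.13). The median was -0.45, beside -0.01 for all genes, of which 50.7% were lower, and the scaled median absolute deviation of all genes was 0.47. Socs3 alone went the other way and was the only gene past 2-fold, at 3284 on the array labelled Furin cKO against 1552 on the control array, 2.12-fold higher. Of the 14235 genes measured, 5.62% were past 2-fold upward and 3.64% downward.

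The other probe sets did not bear out every one of these values. Both other Socs3 probe sets in memory cells were higher on the array labelled Furin cKO, but only 1.20-fold (1188 against 988.7) and 1.16-fold (1339 against 1158). The brightest Socs3 probe set is of the kind marked as able to bind similar transcripts. For 5 genes whose main probe set was lower, another was higher in memory cells: Stat5a 1.56-fold, Jak1 1.56-fold, Stat3 1.43-fold, Stat5b 1.35-fold and Tyk2 2.68-fold, the last at 170.2 against 63.5. Another Stat3 probe set was 3.61-fold lower, at 162 against 584.7. Both Jak2 probe sets were lower, with log2 folds of -0.43 and -0.21. The 2 Jak3 values, one of them shared with Insl3, were also alike at -0.56 and -0.57. In activated cells another Socs3 probe set was at least 1.93-fold higher on the Furin cKO array (92 against 36.8, a value under the floor), and the dimmer Stat5a probe set was lower (log2 fold -0.24) where the brighter was higher. With all probe sets of a gene averaged, the log2 folds in activated cells were 0.95 for Tyk2, 0.64 for Socs3 and 0.07 for Stat5a, against 0.05, 0.20 and 0.38 by the brightest one. The second Tyk2 probe set that enters this mean was below the floor on both activated arrays. In memory cells the averaged log2 folds were 0.52 for Socs3, 0.47 for Tyk2 and 0.04 for Jak1. They were -0.02 for Stat5b, -0.06 for Stat5a, -0.32 for Jak2 and -0.47 for Stat3. So Tyk2 and Jak1 were no longer lower there, and Stat5a and Stat5b were near 0.

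**Figure D3:**
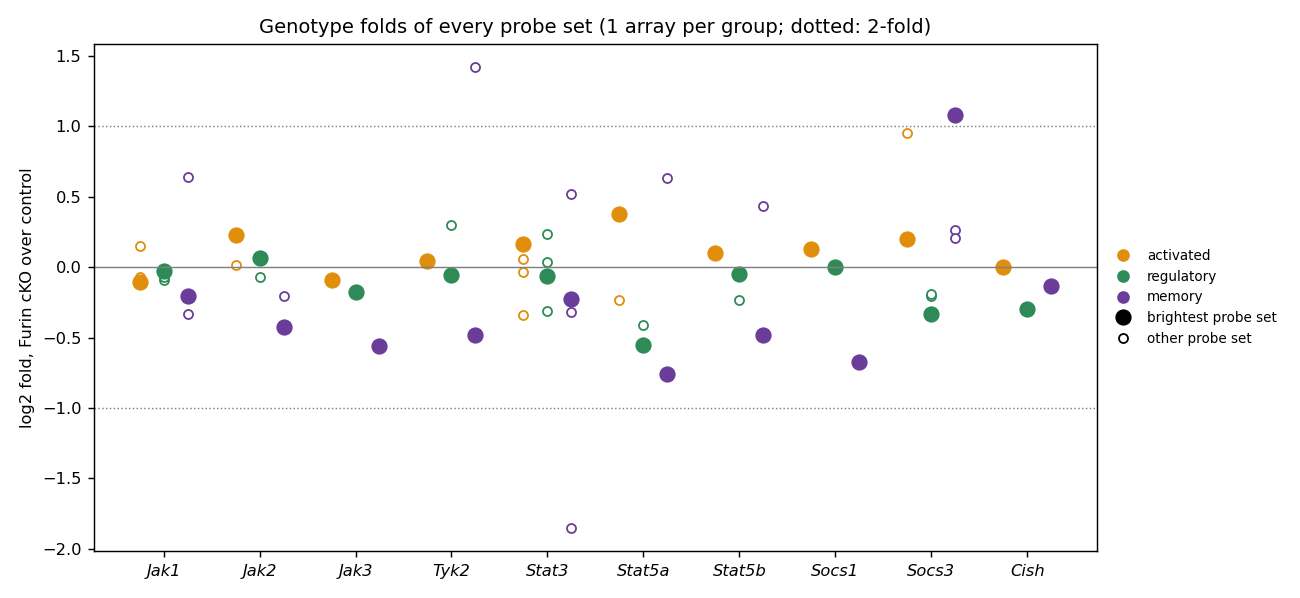
Log2 fold of Furin cKO over control (vertical axis; dotted lines mark 2-fold) for every probe set of each gene with a signal at or above the floor on at least 1 of the 2 arrays, by population, 1 pair of arrays per point. Large filled points are the brightest probe set of a gene and small open points the others; in memory cells the points of Stat3, Stat5a, Stat5b, Jak1 and Tyk2 lie on both sides of 0.

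The arrays of a population also differed in markers of other cells. In memory cells the summed signal of 13 of 14 listed myeloid and dendritic markers was 34830 on the array labelled Furin cKO and 67470 on the control array, that of 8 of 9 granulocyte markers 8124 and 2168, that of 8 of 9 B cell markers 4315 and 2813, and that of 5 of 6 plasma cell markers 25340 and 12410. On the regulatory arrays of Furin cKO and control mice, the granulocyte markers summed to 3021 and 1579, the plasma cell markers to 15630 and 23810, the B cell markers to 2390 and 1933 and the myeloid markers to 9968 and 9877. On the memory array labelled Furin cKO, 2 of 13 myeloid and 7 of 8 granulocyte markers were higher. So were 6 of 8 B cell and 3 of 5 plasma cell markers. Erythroid markers summed to 295.4 and 840.7 in memory and 93.6 and 355.9 in regulatory cells, Furin cKO before control. In the same order, CD8 T cell markers gave 697 and 1070, and 896.3 and 934.2. NK cell markers gave 866 and 653.8, and 461.8 and 451.5. The part of these cells in the genotype values was not tested. On the activated arrays of Furin cKO and control mice, 0 of the 8 granulocyte markers were above the floor and the myeloid markers summed to 2019 and 2004.

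Over the 3 populations together, the genotype effect in the limma fit was not called for any of the 10 genes, with adjusted p from 0.82 to 0.947. Of all genes, 0% were called in either direction, where 450 of 15808 had an unadjusted p under 0.05, and 0 of these were among the 10. The estimates ran from -0.31 for Stat5a (95% interval -1.03 to 0.40) to 0.31 for Socs3 (interval -0.51 to 1.14). These ends rest on the memory pair, whose direction is in doubt: without both memory arrays the estimates were -0.09 for Stat5a and -0.07 for Socs3, and 0 genes were called. The error in this test is the variation of the genotype difference among populations, not among animals.

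The counts of the pathway lists are to be read against all genes tested, of which 27.0% were called lower and 17.4% higher in activated relative to memory cells, and 26.5% lower and 18.1% higher relative to regulatory cells. Of 8 listed chains of receptors that signal through JAK1 and JAK3, 7 are on the array with 1 symbol. Il2rg, which encodes the common gamma chain, is not among them. In the limma fit 1 of the 7 rose and 2 fell in activated relative to memory cells, near those shares. Il7r, the receptor for the survival cytokine IL-7, read 372.2 and 225.4 in activated, 9034 and 7317 in regulatory, and 21717 and 18389 in memory cells, Furin cKO before control. It was 69.0-fold lower in activated than in memory cells (adjusted p = 0.00167). Il2rb, the signalling beta chain for IL-2 and IL-15, was 11.1-fold lower (adjusted p = 0.00181), at 389.1 and 508.4 against 4436 and 5515. Il2ra, the alpha chain that raises affinity for IL-2, was 2.70-fold higher in activated cells (adjusted p = 0.0168), at 2340 and 2321 against 626.8 and 1190. Relative to regulatory cells, 0 rose and 4 of the 7 fell, and only 6 of the 7 read at or above the floor on an activated array. Il9r did not (3.8 and 1.9). It entered the fit through the regulatory arrays (94.5 and 91.5), with both activated values set to the floor. It is 1 of the 4 that fell, and no adjusted p is given for it.

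The next list holds 16 chains of receptors that signal through JAK1, JAK2 or TYK2. Of these, 10 fell and 1 rose in activated relative to memory cells, and 7 fell and 1 rose relative to regulatory cells. Their median log2 difference was -1.82 and -1.01, beside -0.21 and -0.23 for all genes. Only 10 of the 16 read at or above the floor on an activated array. The others entered the fit through the sorted arrays, with both activated values set to the floor, so no adjusted p is given for them. They are part of these counts and medians. Il10ra, the ligand-binding chain for IL-10, was below the floor on both activated arrays, at least 14.7-fold under memory cells. Ifngr1, the binding chain for interferon gamma, was 5.46-fold lower (limma adjusted p = 0.00362), and Ifnar2, of the type I interferon receptor, 6.02-fold lower (adjusted p = 0.00196). Csf2rb, the shared beta chain for GM-CSF and IL-3, was below the floor in activated cells and at least 22.3-fold under memory cells, and is also a gene of myeloid cells. Il27ra was 5.47-fold lower (adjusted p = 0.00235). The 1 chain that rose was Il12rb1, which pairs with TYK2, at 2782 and 2281 in activated against 1171 and 1355 in memory cells (adjusted p = 0.0175). In memory cells 3 of 15 chains measured were at least 2-fold lower on the array labelled Furin cKO: Csf2rb, Lifr and Il6ra, the last at 435.6 against 898.3, beside 3.64% of all genes and a lower sum of myeloid markers on the same array.

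The rest of the pathway did not move as one. Of 3 other STAT genes measured, only Stat2, which serves type I interferons, fell in activated relative to memory cells, 3.56-fold (limma adjusted p = 0.00271), while Stat4 (log2 difference -0.03) and Stat6 (0.01) were not called. Of the 5 other SOCS genes, 2 fell and 2 rose relative to memory cells. Socs2, a STAT5 target, read 446.8 and 344.5 in activated, 3580 and 3603 in regulatory, and 2050 and 2246 in memory cells, Furin cKO before control, 5.47-fold lower in activated than in memory cells (adjusted p = 0.00231). Socs7 was 2.91-fold higher (adjusted p = 0.00703) and Socs4 1.95-fold higher (adjusted p = 0.03), while Socs5 was 1.73-fold lower (adjusted p = 0.0442). The 4 SOCS genes that fell, Socs1, Socs2, Socs3 and Socs5, stand beside 2 that rose.

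Other inhibitors of the pathway were split too. Of 13, 5 fell and 2 rose relative to memory cells, where 27.0% of all genes fell and 17.4% rose, and 5 fell and 4 rose relative to regulatory cells (26.5% and 18.1% of all genes). Usp18, which blocks the type I interferon receptor, was 5.71-fold lower in activated than in memory cells (limma adjusted p = 0.00203), and Pias3, an inhibitor of STAT3, 4.75-fold lower (adjusted p = 0.00223). Ptprj, a receptor phosphatase, was below the floor on the activated Furin cKO array and at least 8.61-fold lower (limma adjusted p = 0.00302). Ptprc, which encodes the phosphatase CD45, was 2.58-fold lower (adjusted p = 0.00646). Pias2 was 2.35-fold higher (adjusted p = 0.00419).

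Known STAT targets were described by their counts. Of 23 STAT5 targets on the array, 5 rose and 10 fell in activated relative to memory cells, and 4 rose and 8 fell relative to regulatory cells. Beside this, 17.4% of all genes rose and 27.0% fell against memory cells, and 18.1% rose and 26.5% fell against regulatory cells. The growth regulator Myc was 5.57-fold higher (limma adjusted p = 0.00204) and the cytokine Lif 9.15-fold higher (adjusted p = 0.00205) in activated than in memory cells, while the cyclin Ccnd1 was 15.1-fold lower (adjusted p = 0.00212). Foxp3, below the floor on the activated arrays, was at least 25.9-fold under memory cells, and Il7r and Socs2 are on this list too. Of 19 STAT3 targets, 1 rose and 12 fell relative to memory cells and 1 rose and 10 fell relative to regulatory cells, to be read against the same shares. Maf, a factor of IL-10 and IL-21 producing cells, was below the floor on the activated arrays and at least 137-fold under memory cells. Prdm1, which encodes BLIMP-1, was likewise below the floor and at least 26.0-fold under them. Bcl3, below the floor on the activated control array, was at least 14.5-fold lower (limma adjusted p = 0.00216). Rora was 13.6-fold lower (adjusted p = 0.00207), and Il21, below the floor on the activated arrays, at least 13.4-fold lower. The 1 that rose, Fosl2, was 8.99-fold higher (adjusted p = 0.00363). The median log2 difference relative to memory cells was -0.47 for the STAT5 targets and -1.48 for the STAT3 targets, beside -0.21 for all genes. The lists share genes, and 5 of the STAT3 targets were below the floor on both activated arrays, so their folds are lower bounds. These 5 and Foxp3 entered the fit through the other arrays, with both activated values set to the floor, so no adjusted p is given for them. They are part of the counts and medians.

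**Figure D4:**
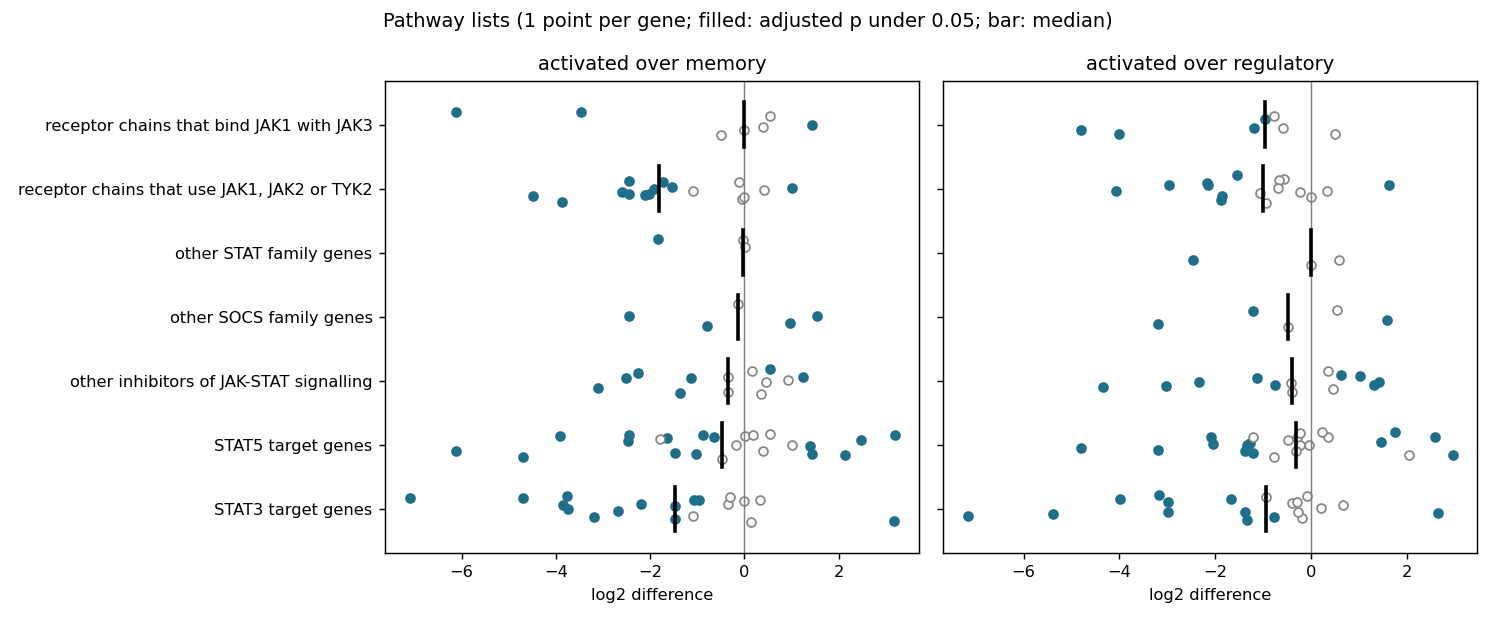
Log2 difference of activated over memory (left) and activated over regulatory cells (right) for the genes of 7 pathway lists, 1 point per gene, with filled points for a limma adjusted p under 0.05 and a black bar at the list's median. The chains of receptors that use JAK1, JAK2 or TYK2 have medians of -1.82 and -1.01, and the STAT3 targets -1.48 and -0.95. Genes below the floor on both activated arrays are drawn with those values set to the floor. They are filled by the same rule and enter the medians, although no adjusted p is given for them in the text.

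Between genotypes, some ligand genes and a few STAT targets were past 2-fold. In activated cells, 3 of 8 ligands measured were at least 2-fold higher, beside 0.390% of all genes, and 1 of 22 STAT5 targets, the type 1 helper cytokine gene Ifng on both lists, at 1695 on the Furin cKO array against 256.6 on the control array. The other ligands were Csf2 (1163 against 562.3) and Il3 (551.9 against 265.1). In memory cells, 3 of 13 ligands were at least 2-fold higher and 1 lower, beside 5.62% and 3.64% of all genes. Ifng (4675 on the array labelled Furin cKO against 1114) and Il2 (1465 against 424.2) were higher, and Il4 was lower (427.7 against 1408). Il12a was also higher (98.2 against 21, a value below the floor, so at least 2.06-fold). It reached the floor only on the array where it is high and entered the count through that array. Of 23 STAT5 targets 2 were at least 2-fold higher there and 0 lower, beside the same shares of all genes. They were Ifng, already counted among the ligands, and Gzmb, which encodes granzyme B (2547 against 653.2). Of 19 STAT3 targets, 1 was at least 2-fold lower in regulatory cells, beside 2.12% of all genes. In memory cells 1 was higher and 2 were lower, beside 5.62% and 3.64% of all genes. Fos, a target of STAT3 and of many other signals, was lower in regulatory cells (478.5 against 1427) and higher in memory cells (4469 against 628). Among STAT3 targets, Fosl2 (76.1 against 164) was lower in memory cells, as was Il6ra. Socs3 in memory cells was past 2-fold by its brightest probe set only, the others giving 1.20-fold and 1.16-fold.

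Among the 6177 genes above the floor on all arrays with a range of at least 1 log2 unit, those most like each of the 4 most variable genes were ranked by Pearson's r of log2 signal over the 6 arrays. These correlations describe 6 arrays that fall into an activated and a sorted cluster, so an r near 1 is common. For Socs3 they were Slc17a5 (0.999), Ubl5 (0.999) and Mef2d (0.999), among 73 genes with r of at least 0.99. For Jak1, Cyth4, Akap13 and Irf7 led with 0.999 each, among 338 such genes. Those most like Socs1 were Il18 (0.999), Arid3b (0.998) and Lrch4 (0.998), among 80. Jak2, the gene that rose, had 11, led by Zdhhc5 (0.997), Rgcc (0.996) and Vamp3 (0.995).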

How the data were processed

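Signals of 45101 probe sets were measured on 6 Affymetrix arrays, 1 per population and genotype. The deposited values are intensities computed by MAS5 according to the labels (per the submitters' processing notes); the sources used here do not give its version, and each array has a trimmed mean of 500 (2% left out at each end). Of 45037 non-control probe sets, 34945 carry 1 gene symbol, 932 several and 9160 none; 34741 matched a RefSeq table by Entrez identifier and 0 symbols changed. Signals below the floor were raised to it, and log2 was taken. A gene below the floor on both arrays of a pair was left out of that pair, and a fold against an array below it is a lower bound. limma 3.58.1 in R 4.3.3 was fitted to 15808 genes at or above the floor on some array, with population and genotype as factors and Benjamini-Hochberg adjustment over all of them; the script was tested on simulated data. The labels do not say whether populations shared animals. The number of arrays limits the precision.

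All 10 genes were named; other pathway genes were named only if called or past 2-fold, at most 5 per list and comparison, largest first, beside receptor chains of the members and, outside that rule and after their values were seen, the 1 gene of a list that went against the rest and genes that complete a small count; 1 further gene list is not reported here. The members and lists were chosen with earlier results of these data known. Alternatives were 3 filters, 2 scalings, averaging all probe sets per gene, no genotype term and arrays left out. Leaving out probe sets marked as binding similar transcripts, and leaving out both regulatory arrays or, for activated over regulatory cells, both memory arrays, were added after seeing the data.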

Additional observations from a re-analysis of the deposited data

Results flagged for a closer look

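Stat5a and Socs3 are listed because their genotype difference had opposite signs in different populations, beyond the spread of all genes. With 1 array per group none of these differences was tested. The memory pair is in doubt, since Furin read 2203 on the array labelled Furin cKO and 647.4 on the control array: were those labels exchanged, Socs3 would be lower in both regulatory and memory cells, and Stat5a would be higher in both activated and memory cells. The log2 fold of Furin cKO over control for Stat5a was 0.38 in activated cells, against -0.55 in regulatory cells and -0.76 in memory cells. The dimmer Stat5a probe set gave -0.24, -0.41 and 0.64 in that order, so the sign in activated and in memory cells depended on the probe set. For Socs3 the log2 fold was -0.34 in regulatory cells and 1.08 in memory cells. Its other probe sets were also lower in regulatory cells (-0.21 and -0.19) and higher in memory cells (0.27 and 0.21), at a smaller size.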

How the results depend on the processing

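The count of these genes past 2-fold in memory cells, 1 (Socs3), was 0 with all probe sets of a gene averaged and 0 without probe sets marked as binding similar transcripts, since other Socs3 probe sets then enter. Without 1 array the limma fit has 1 residual degree of freedom, and the genes called were between 1 and 6 for activated over memory cells and between 0 and 7 for activated over regulatory cells, against 9 in each with all 6. They were 3 and 2 without the activated Furin cKO array, 2 and 0 without the activated control array, 1 and 0 without either regulatory array, 6 and 7 without the memory array labelled Furin cKO, and 5 and 7 without the memory control array. The activated over memory count was 1 without both regulatory arrays, and the activated over regulatory count was 7 without both memory arrays. With all 6 arrays, both counts fell with the floor at the 20th percentile, to 6 and 7, and with no filter, to 6 and 6; Jak3, Stat3 and Cish lost their activated over memory calls (adjusted p 0.0555 to 0.0802). Stat5b lost that call with probe sets averaged (log2 difference -0.38, adjusted p = 0.109). All 18 called differences kept their sign in every setting.

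Over all genes, the numbers at least 2-fold higher and lower on the Furin cKO array changed with the floor. With it at the 20th percentile they were 477 and 447 in activated, 1710 and 1435 in regulatory and 2183 and 1526 in memory cells, and with it at the 60th, 18 and 9, 39 and 39, and 259 and 224, against 42 and 40, 458 and 309, and 800 and 518. Quantile scaling gave 71 and 52 in activated and 281 and 292 in regulatory cells, cyclic loess 118 and 84 and 220 and 202, and the mean of probe sets 66 and 59 in activated cells. Regulatory over memory calls over all genes were 453 at a floor of the 60th percentile and 655 with no genotype term, against 0.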
